A study of Mus musculus with 3 samples.

Results

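Chemokine ligands are small secreted proteins, and the genes of 6 of them, Ccl1, Xcl1, Ccl3, Ccl4, Ccl5 and Cxcl10, were followed here across thymic cells of 3 droplet single-cell RNA-seq libraries. The 6 were matched by symbol among the 30406 genes that all 3 libraries list, and they had been picked from measured values of these same libraries, so their levels and differences are given as a description, with no test. The study asked how invariant natural killer T (iNKT) cells, T cells with a nearly fixed T cell receptor that recognise lipids on CD1d, are rebuilt in the thymus after haploidentical bone marrow transplantation with graft-versus-host disease (GvHD). F1 hosts (C57BL/6 x BALB/c) were irradiated at a lethal dose and received C57BL/6 bone marrow freed of CD3+ T cells, either alone (BM only) or together with C57BL/6 splenic cells that bring GvHD (BM + Spl). The BM only and BM + Spl thymi were taken at 16 weeks of age, 9 weeks after transplantation, and the C57BL/6 library came from untreated mice of 7 weeks. Thymi of several mice were pooled into each library, CD8+ cells were depleted with beads, and cells that carried TCRβ and bound the CD1d tetramer but lacked CD24 and NK1.1 were sorted, so that each condition is 1 library with no replicate and both transplanted libraries share host strain and irradiation.

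Chemokines bind G protein-coupled receptors and draw leukocytes along a gradient. CCL1 is the ligand of CCR8, XCL1 of XCR1 on cross-presenting dendritic cells, CCL3 and CCL5 of CCR1 (CCL5 also of CCR3) and CXCL10 of CXCR3. In the thymus, medullary cells make XCL1 that positions dendritic cells, NKT1 cells are known for CCL5 and XCL1 beside IFN-γ, activated T cells release CCL1, CCL3 and CCL4 within hours of a receptor signal, and CXCL10 is a classical product of interferon-stimulated cells.

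The 6 genes lie on 3 chromosomes of GRCm38, in the GENCODE vM21 annotation. Xcl1 (ENSMUSG00000026573) is at chr1:164931644-164935527 on the minus strand and Cxcl10 (ENSMUSG00000034855) at chr5:92346638-92348889 on the minus strand. The other 4 are on chromosome 11: Ccl1 (ENSMUSG00000020702) at chr11:82176657-82305690, Ccl5 (ENSMUSG00000035042) at chr11:83525778-83530518 and Ccl3 (ENSMUSG00000000982) at chr11:83647844-83649355, all on the minus strand, and Ccl4 (ENSMUSG00000018930) at chr11:83662584-83664683 on the plus strand. Ccl3 and Ccl4 stand 13229 bases apart. Ccl1 has 3 annotated transcripts spread over 129034 bases, and UMIs were counted for the whole gene. Xcl1 lies across the antisense gene Gm20743, which the libraries do not list, and Cxcl10 lies within Art3 on the opposite strand, which had 8 UMIs in C57BL/6, 16 in BM only and 32 in BM + Spl. Whether the counting used strand is not given in the sources used here, so reads of these pairs may not be told apart.

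RefSeq promoter windows (GRCm38.p6, 250 bases before to 50 after the gene start) were found for 4 of the 6, Ccl1, Xcl1, Ccl3 and Cxcl10. They were searched on both strands for GAAA repeated after any 2 bases (named ISRE here), GGGA and CC with any 4 bases between (NF-kB), TGANTCA (AP-1) and GGAAA (NFAT), which stood in 3.44%, 20.7%, 7.81% and 61.3% of 32851 promoters of the same length. Of the ligands, Ccl1 was highest in BM + Spl against BM only and Xcl1 was most widely detected in BM only. The richest cells of Cxcl10 were rich in interferon-response transcripts in each of the 3 libraries. Below are the windows of these genes, all 5′ to 3′ on the gene's minus strand, with ISRE, NF-kB and AP-1 letters in capitals.
Ccl1, chr11:82179763-82180062: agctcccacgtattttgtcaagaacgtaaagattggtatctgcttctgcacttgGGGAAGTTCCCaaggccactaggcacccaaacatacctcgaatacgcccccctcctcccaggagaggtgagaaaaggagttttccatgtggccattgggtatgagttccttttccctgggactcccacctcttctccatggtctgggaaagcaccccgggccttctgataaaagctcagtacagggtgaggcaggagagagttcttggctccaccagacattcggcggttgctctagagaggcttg
Xcl1, chr1:164935473-164935772: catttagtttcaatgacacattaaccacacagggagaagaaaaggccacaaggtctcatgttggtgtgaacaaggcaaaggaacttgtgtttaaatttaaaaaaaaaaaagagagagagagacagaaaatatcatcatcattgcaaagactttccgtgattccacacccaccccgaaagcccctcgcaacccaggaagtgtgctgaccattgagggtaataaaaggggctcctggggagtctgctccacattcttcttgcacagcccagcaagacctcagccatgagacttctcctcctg
Cxcl10, chr5:92348840-92349139: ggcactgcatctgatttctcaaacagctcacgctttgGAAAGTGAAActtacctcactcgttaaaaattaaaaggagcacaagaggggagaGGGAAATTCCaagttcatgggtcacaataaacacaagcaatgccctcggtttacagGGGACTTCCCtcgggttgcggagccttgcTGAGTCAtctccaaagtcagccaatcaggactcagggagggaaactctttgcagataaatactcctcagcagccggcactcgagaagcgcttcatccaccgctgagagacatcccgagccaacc
The Ccl1 window held the NF-kB letters 196 bases before the RefSeq start, on both strands in overlapping frames. That start lies inside the GENCODE span of Ccl1 given above and not at its 5′ end. The Cxcl10 window held the ISRE letters at 213 bases before the start, NF-kB letters at 159 and at 103 bases, and AP-1 letters at 74 bases. The windows of Xcl1 and Ccl3 held none of these 3, and each of the 4 windows held the short NFAT letters, which in Cxcl10 overlap both the ISRE letters and the NF-kB letters at 159 bases. These are matches of letters and show no binding.

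Transcripts were counted as unique molecular identifiers (UMIs, each 1 captured molecule), and cells with more than 200 but fewer than 6000 detected genes were kept if mitochondrial genes gave less than 10% of their UMIs. This left 4434 of 4613 C57BL/6 cells, 5970 of 5986 BM only cells and 5557 of 5573 BM + Spl cells, with median depths of 12073.5, 4721 and 6463 UMIs. Levels are UMIs of a gene with all UMIs of the library or class scaled to 1000000 (CPM), with exact Poisson 95% intervals, and shares of cells carry Clopper-Pearson 95% intervals. All intervals cover counting error only, and since the UMIs of these genes crowd into few cells, they do not cover the spread between cells or mice. Cells were sorted into 9 marker gates from their own UMIs, in a fixed order, and called NKT1-like (at least 3 of Tbx21, Il2rb, Cxcr3, Nkg7, Ctsw and Klrd1), NKT2-like (Zbtb16 with a further marker such as Il4), NKT17-like, CD8-like, regulatory T (Treg)-like, plasmacytoid dendritic cell (pDC)-like, B cell-like, macrophage/DC-like or, by their markers, Sostdc1/Nrn1/Penk cells, and all others were ungated. A gate is a range of marker UMIs, and 696, 462 and 461 cells of C57BL/6, BM only and BM + Spl sat at the lowest NKT1 score that passes (3 of 6 markers). The 3 non-T gates held 6, 327 and 523 cells, of which 4, 41 and 111 also had UMIs of at least 2 Cd3 genes and may be doublets. No doublet caller was run, and 43 barcodes occurred in both transplanted libraries (0.720% and 0.774% of their cells) but none in C57BL/6 and either of them. C57BL/6 differs from the transplanted libraries in host, age, treatment, depth, mitochondrial share (a median of 6.52% against 0.688% and 0.512%) and Cell Ranger version, so its values stand beside theirs without a call.

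Ccl1 was the gene that set BM + Spl apart. It had 29 UMIs in 8 cells of C57BL/6 (0.493 CPM, 0.330 to 0.708), 758 UMIs in 32 cells of BM only (21.8 CPM, 20.3 to 23.4) and 10158 UMIs in 311 cells of BM + Spl (236 CPM, 231 to 240.2). BM + Spl was thus 10.8-fold above BM only (log2 ratio 3.43, 3.33 to 3.54), and Ccl1 ranked 25 of 12802 genes from the highest ratio. Without the 10 cells richest in Ccl1 in each library the ratio was 6.63, since those cells held 93.9% of the UMIs of BM only and 44.5% of BM + Spl. The 4 ligands Xcl1, Ccl3, Ccl4 and Ccl5 were lower in BM + Spl, and Cxcl10 was within the 1.5-fold line that the study drew. Xcl1 stood at 27.0 CPM in C57BL/6, 253 in BM only and 123 in BM + Spl (log2 ratio of BM + Spl over BM only -1.04, -1.09 to -0.995). Ccl5 stood at 143, 602 and 269 CPM (log2 ratio -1.16, -1.20 to -1.13). Both were therefore highest in BM only. Ccl3 had 4 UMIs in C57BL/6 (0.0680 CPM), 820 in BM only (23.6 CPM) and 598 in BM + Spl (13.9 CPM), with a log2 ratio of -0.76 (-0.92 to -0.61). In BM only 1 cell held 215 of the 820, and without the richest cell of each library Ccl3 stood at -0.53 (-0.70 to -0.36), within 1.5-fold. Ccl4 had 34 UMIs (0.578 CPM), 4813 (138 CPM) and 3592 (83.3 CPM), with a log2 ratio of -0.73 (-0.79 to -0.67). Both genes were close to 0 in C57BL/6. Cxcl10 stood at 6.55, 7.90 and 6.68 CPM (log2 ratio -0.24, -0.49 to 0.00). So 1 of the 6 genes was past 1.5-fold higher and 4 were past it lower, beside 6.83% higher and 8.28% lower among 12802 genes with at least 50 UMIs, and the count only describes how the 6 were picked.

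**Figure D1:**
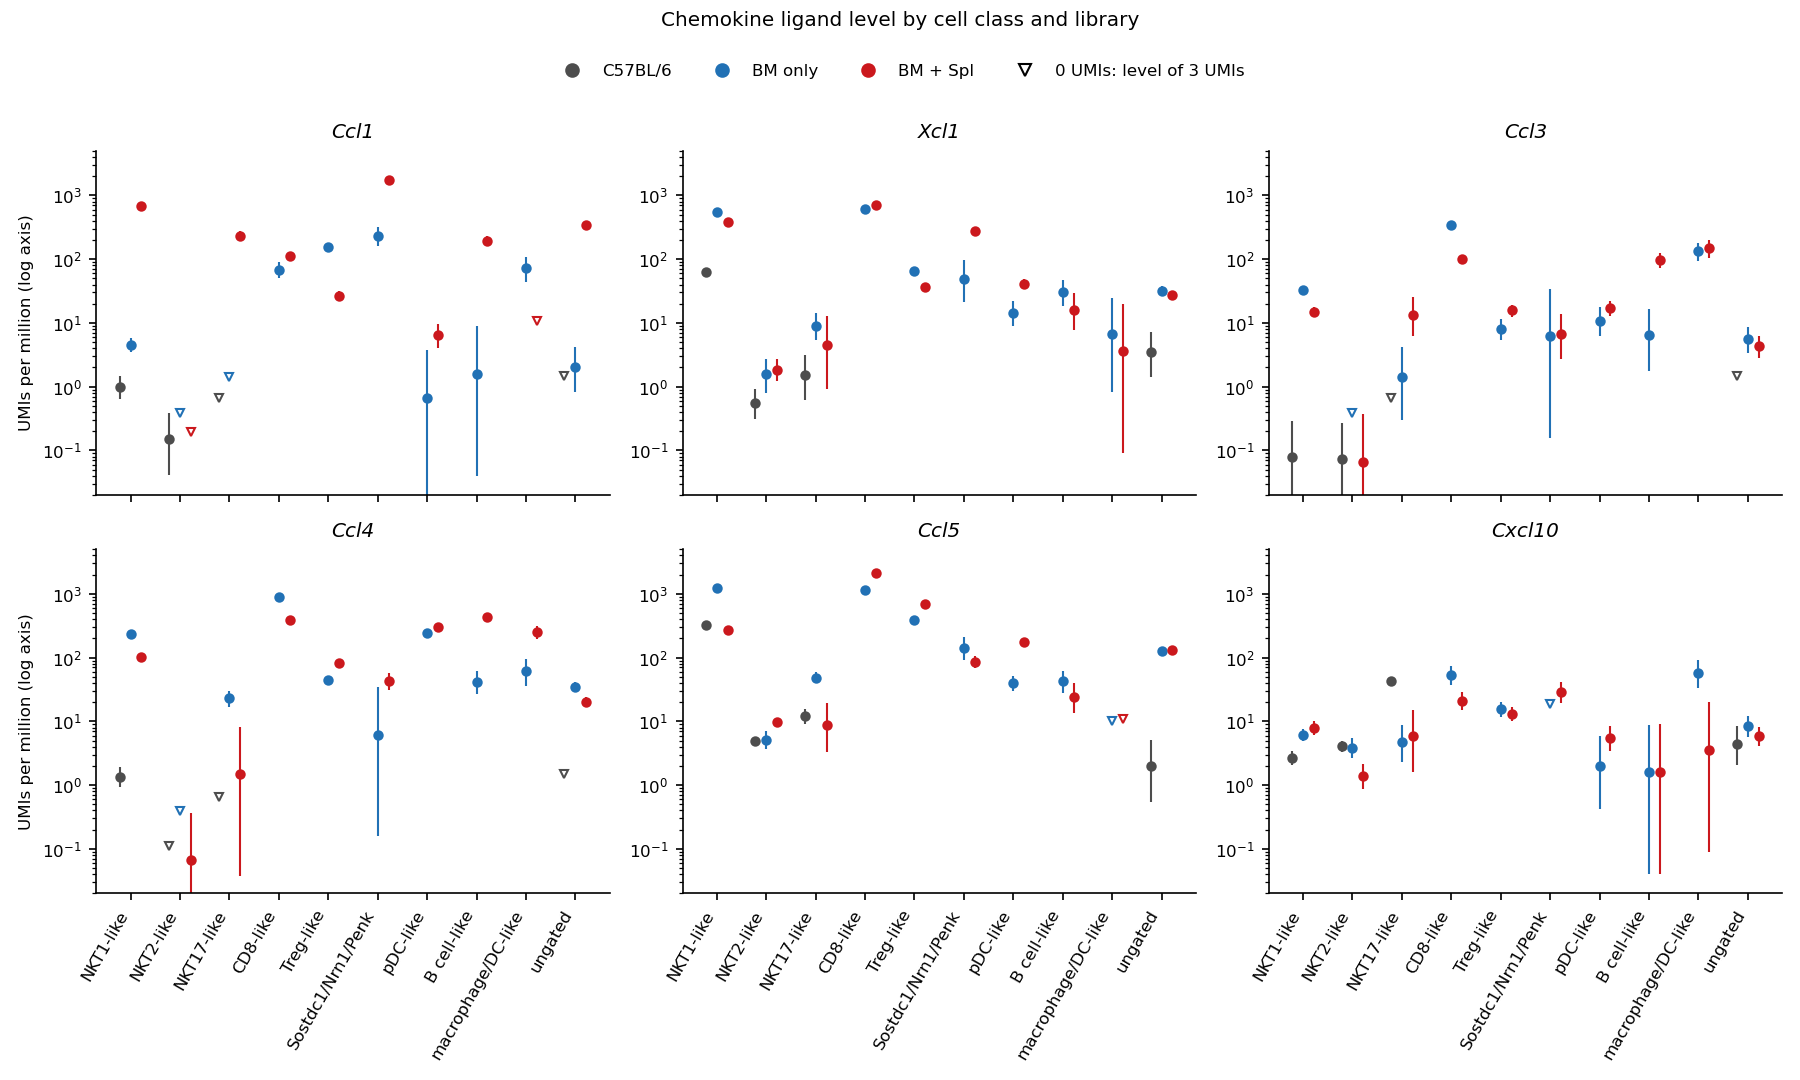
CPM of each gene (log axis) in each gated class with at least 20 cells, in the 3 libraries; bars are exact Poisson 95% intervals, which cover counting error only, and open triangles mark classes with 0 UMIs at the level that 3 UMIs would give. Ccl1 of BM + Spl stood at 672 CPM in NKT1-like cells and 1754 CPM in Sostdc1/Nrn1/Penk cells but at 0 in NKT2-like cells.

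These totals rested on few cells. Each library was split, gene by gene, into the 1% of cells richest in that gene and the rest. In BM + Spl the richest 1% (56 cells) held 88.1% of Ccl1 UMIs, 82.4% of Ccl3, 64.2% of Ccl4, 62.4% of Xcl1, 61.8% of Cxcl10 and 41.3% of Ccl5. In BM only the richest 1% (60 cells) held 100% of Ccl1, 68.2% of Ccl3, 65.8% of Cxcl10, 42.9% of Ccl4, 24.0% of Ccl5 and 17.3% of Xcl1. In C57BL/6 (44 cells) it held 91.9% of Cxcl10, 40.1% of Ccl5 and 27.3% of Xcl1, while Ccl1, Ccl3 and Ccl4 had under 200 UMIs there, in so few cells that all of them lay within the 1%. At least 50% of UMIs lay in the richest 1% for 5 of 6 genes in BM + Spl, where 2.25% of genes with at least 200 UMIs did so, for 3 of 6 in BM only (2.7% of genes), and for 1 of the 3 with at least 200 UMIs in C57BL/6 (0.49% of genes). Being rare is built into such a figure, since a gene in under 1% of cells must reach 100%.

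The number of cells that carried 50% of a gene's UMIs differed between BM only and BM + Spl in opposite directions for Ccl1 and Xcl1. For Ccl1 it was 1 cell in C57BL/6, 1 in BM only and 13 in BM + Spl. For Xcl1 it was 149, 421 and 33 cells. This number was thus larger in BM + Spl than in BM only for Ccl1 and smaller for Xcl1. NKT1-like cells were 48.4% of BM only and 19.99% of BM + Spl cells, and the part of class make-up in these numbers was not tested. For 50% of its UMIs Ccl4 needed 4, 84 and 28 cells, Ccl3 1, 25 and 11, and Ccl5 62, 181 and 87. Cxcl10 needed 1, 31 and 39 cells. The largest count in any cell was 722 UMIs of Ccl1, in an NKT1-like cell of BM + Spl where they made up 7.43% of its 9713 UMIs. Among cells with a UMI, the share with exactly 1 ran from 24.8% for Ccl5 to 71.4% for Cxcl10 in BM only, and from 27.0% for Ccl5 to 66.3% for Cxcl10 in BM + Spl, so Cxcl10 was mostly seen as lone UMIs and Ccl5 was not.

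**Figure D2:**
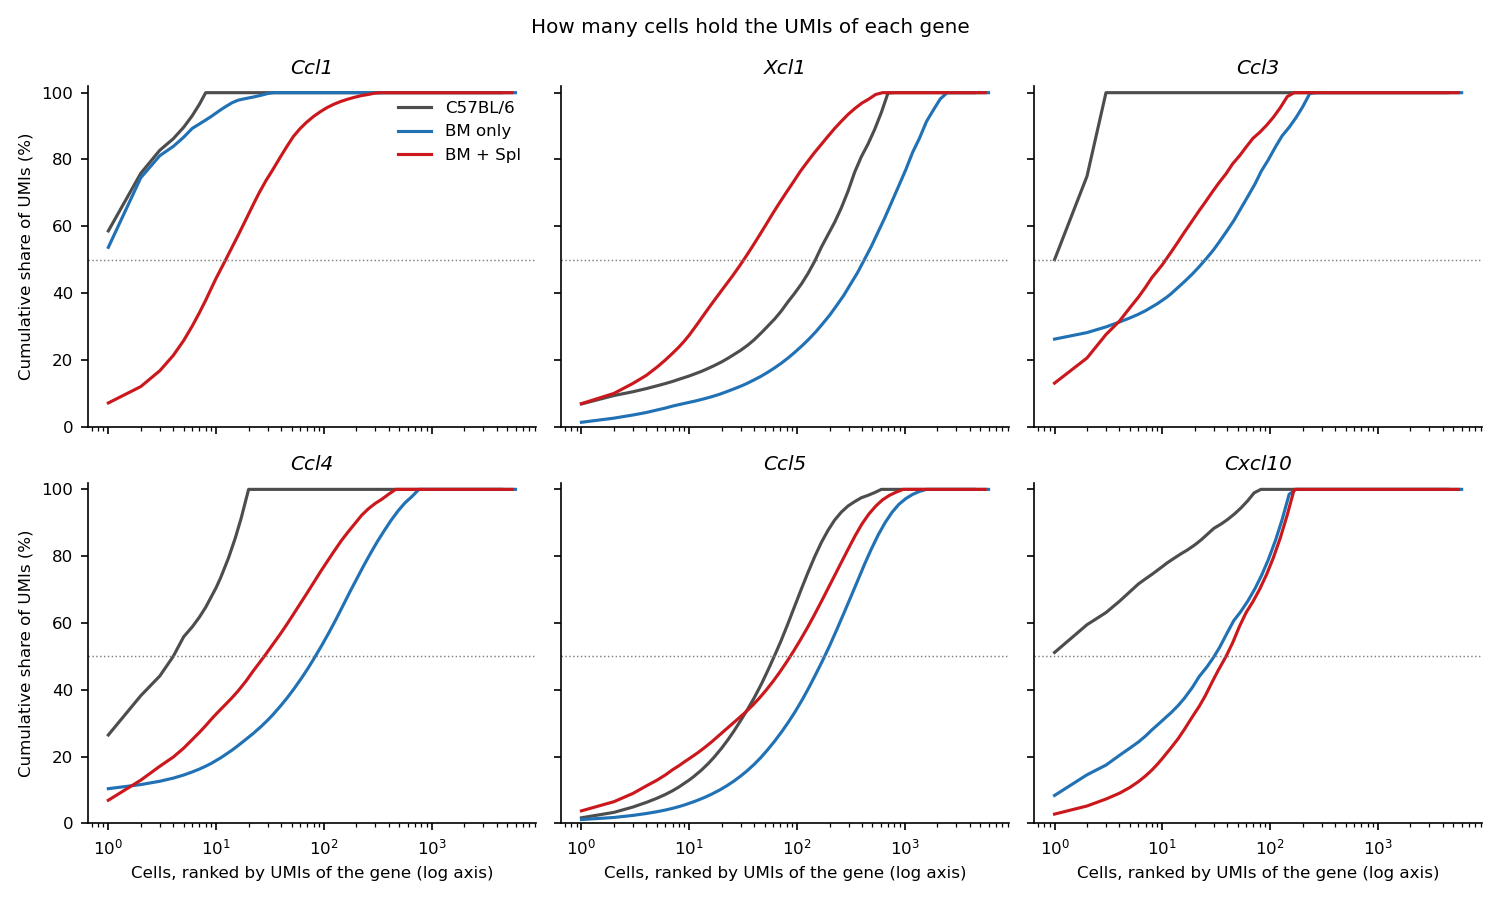
Cumulative share of each gene's UMIs (%) against cells ranked from most to fewest UMIs of that gene (log axis), per library; the dotted line is 50%. Xcl1 reached 50% after 33 cells in BM + Spl, 149 in C57BL/6 and 421 in BM only, and Ccl1 after 13 cells in BM + Spl.

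Ccl1 was found in several T cell classes of BM + Spl but not in NKT2-like cells. By class, BM + Spl had 5501 Ccl1 UMIs in 148 of 1111 NKT1-like cells (672 CPM), 1844 in 41 of 170 Sostdc1/Nrn1/Penk cells (1754 CPM) and 2162 in 61 of 1265 ungated cells (345 CPM). CD8-like cells had 204 UMIs (113 CPM), NKT17-like cells 157 (234 CPM, in 4 of 84 cells) and Treg-like cells 147 (26.9 CPM). None of the 1401 NKT2-like cells had a Ccl1 UMI, which allows a share of cells with a UMI of up to 0.214%, although these cells were the deepest T cell class (a median of 10090 UMIs against 5621 in NKT1-like cells). In BM only the class order was different, with 578 of 758 UMIs in 7 Treg-like cells, of which 1 cell held 407 and another 158, while 2891 NKT1-like cells had 66 UMIs. The log2 ratio of BM + Spl over BM only was 7.21 (6.86 to 7.58) in NKT1-like cells, 7.40 (6.36 to 8.72) in ungated cells, 2.94 (2.47 to 3.45) in Sostdc1/Nrn1/Penk cells and -2.51 (-2.78 to -2.25) in Treg-like cells. The BM only side of these was thin, with 7 UMIs in 2 of 856 ungated cells, 6 of them in 1 cell. Sostdc1/Nrn1/Penk cells of BM only had 37 UMIs in 3 of 28 cells. The Treg-like ratio went the other way from the share of cells with a UMI, which was 7 of 614 (1.14%) in BM only and 31 of 675 (4.59%) in BM + Spl, or 0.741% and 2.55% when each cell was thinned to 2500 UMIs. In NKT1-like cells the share with a Ccl1 UMI was 0.311% in BM only and 13.3% in BM + Spl (0.155% and 11.4% thinned).

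Cells with at least 20 Ccl1 UMIs, a limit chosen after the values were seen, numbered 0 in C57BL/6, 6 in BM only and 69 in BM + Spl, where they held 91.1% of the gene's UMIs. The 69 comprised 34 NKT1-like, 16 ungated and 13 Sostdc1/Nrn1/Penk cells, 2 CD8-like, 2 NKT17-like, 1 Treg-like and 1 B cell-like cell, with a median of 8481 UMIs against 6488.5 in cells without Ccl1. Of the 59 with a V beta call, 40.7% used a segment known from iNKT cells, against 61.9% in cells without Ccl1. The latter include all 1401 NKT2-like cells, where such segments made up 95.9% of calls. Among NKT1-like cells the shares were 40% of 30 calls with at least 20 Ccl1 UMIs and 56.6% of 804 calls without Ccl1. The 34 NKT1-like cells were set beside the 963 NKT1-like cells of BM + Spl that had no Ccl1 UMI. All 12 genes of an activation list were past 1.5-fold higher in the rich cells, beside 21.1% of the 2444 genes with at least 20 UMIs in the rich cells, a minimum that itself favours genes high there. Il2, the T cell growth factor, stood at 665 against 4.04 CPM, and Csf2, which encodes GM-CSF, at 640.5 against 7.38 CPM. Ifng stood at 1921 against 107 CPM, with a UMI in 79.4% against 32.0% of cells. The rest of the list stood from 1.81-fold (Egr1, an immediate early factor) to 11.6-fold (Egr2) higher. Cd70, a TNF family ligand, had UMIs in 61.8% against 2.70% of cells. Of the other ligands, Xcl1 (2590 against 273 CPM), Ccl4 (842 against 70.9) and Ccl3 (92.8 against 11.7) were higher in the Ccl1-rich cells, and Ccl5 was lower (74.3 against 293). Ccr8, the receptor of CCL1, had UMIs in 82.4% of rich cells and 35.1% of the others. Zbtb16, which encodes the iNKT factor PLZF, had 0 UMIs in the 34 rich cells, which allows up to 8.82% of such cells to have a UMI and sets no limit on cells that express the gene, and 1181 UMIs in 36.2% of the others (164 CPM). Of the interferon list 0 of 6 genes were past 1.5-fold higher and 4 were past it lower, on 2 to 20 UMIs in the rich cells. Of the 2444 genes 6.14% were past it lower, but only 2 of the 6 have the 20 UMIs needed to be among them.

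**Figure D3:**
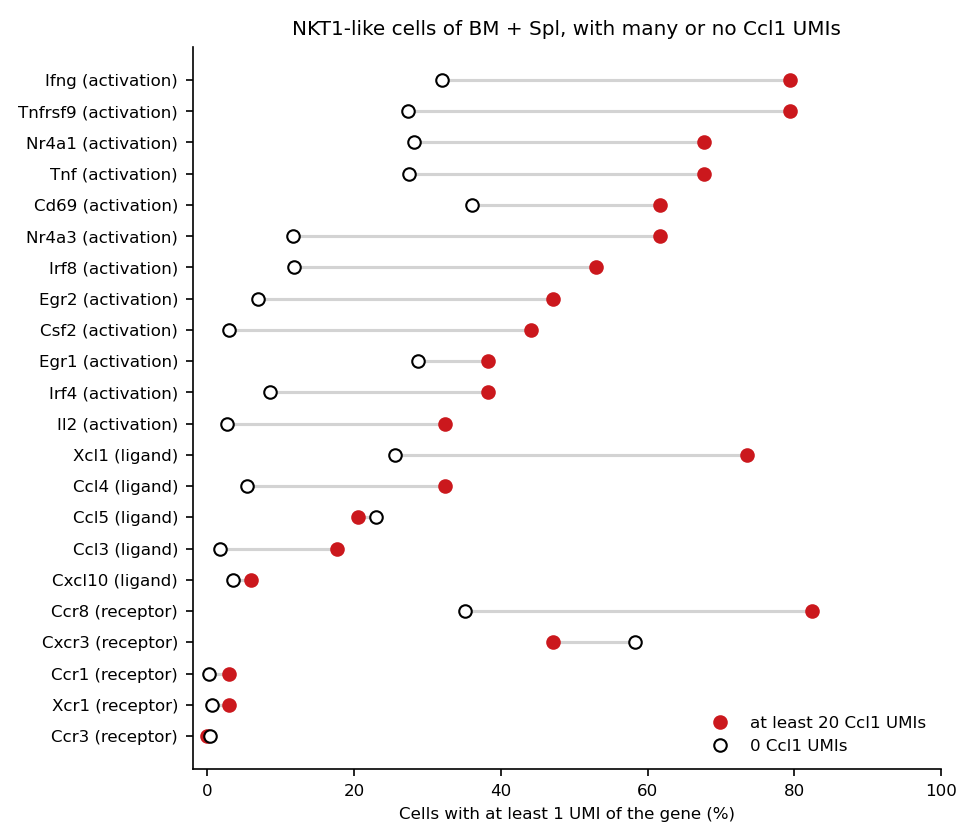
Share of NKT1-like BM + Spl cells with at least 1 UMI of each activation, ligand and receptor gene (%), for the 34 cells with at least 20 Ccl1 UMIs (filled) and the 963 cells with 0 (open). Ccr8 was found in 82.4% against 35.1% of cells and Ifng in 79.4% against 32.0%, while Ccl5 was found in 20.6% against 22.9%.

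Xcl1 was highest in NKT1-like and CD8-like cells in each transplanted library. In NKT1-like cells it had a UMI in 674 of 2246 cells of C57BL/6 (30.0%), 2113 of 2891 of BM only (73.1%) and 307 of 1111 of BM + Spl (27.6%), and thinned to equal depth in 16.3%, 60.5% and 21.2%. Levels were 62.0 CPM (59.0 to 65.2), 547 CPM (535 to 559) and 388 CPM (375 to 402). BM only thus stood above both others by each measure. NKT2-like cells had a UMI in 0.772%, 0.502% and 0.857% of cells at greater depth (medians of 14868, 8942 and 10090 UMIs) than NKT1-like cells, and single cells held 8 of the 12 NKT2-like UMIs of BM only and 13 of the 28 of BM + Spl. CD8-like cells stood at 612 CPM in BM only and 700 CPM in BM + Spl (log2 ratio 0.19, 0.03 to 0.36), and Treg-like cells at 64.5 and 36.6 CPM.

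Part of the Xcl1 of NKT1-like cells in BM + Spl lay in cells with no detected transcript of the CD3 chains of the T cell receptor complex. In BM + Spl, 31 NKT1-like cells had no UMI of Cd3e, Cd3d or Cd3g, and all 31 had Xcl1, with 1194 of the 3175 UMIs (37.6%) at 5174 CPM. In BM only 38 such cells held 378 of 7949 UMIs (4.76%), and C57BL/6 had none. Without them Xcl1 stood at 527 CPM in BM only and 249 CPM in BM + Spl, and the log2 ratio went from -0.50 (-0.56 to -0.43) to -1.08, past the 1.5-fold line. Leaving these cells out was chosen after the data were seen. The ratio was also past the line without the 10 richest cells (-1.14), thinned (-0.59), with an NKT1 gate of 2 markers (-1.11) and with an iNKT V beta (-1.45), and near 0 with a gate of 4 markers (0.05) or gates set on thinned cells (0.09). Of the 36 NKT1-like BM + Spl cells with at least 20 Xcl1 UMIs, 16 lacked Cd3 UMIs, and 22 had at least 2 of Tyrobp, Fcer1g and Ncr1, which encode signalling adaptors and a receptor known from natural killer cells. Against NKT1-like cells without Xcl1, 8 of 12 activation genes were past 1.5-fold higher in the 36, beside 17.9% of 2703 genes. In the 18 such cells of BM only 9 were higher and 1 lower, where 13.8% of 982 genes were higher. These shares are of genes with at least 20 UMIs in the rich cells, which 10 and 4 of the 12 had. In those 36 cells Gzmc, a granzyme, stood at 11322 CPM against 1.98 CPM in NKT1-like cells without Xcl1, and Ncr1 had 103 UMIs against 0. The sort gate asked for TCRβ protein and no NK1.1. What these cells are was not tested.

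Ccl5, whose product binds CCR1 and CCR3, was lower in BM + Spl than in BM only in NKT1-like cells and higher in CD8-like, Treg-like and pDC-like cells. In NKT1-like cells it stood at 327 CPM (320 to 334) in C57BL/6, 1240 CPM (1222 to 1258) in BM only and 268 CPM (257 to 280) in BM + Spl, a log2 ratio of -2.21 (-2.27 to -2.14). The share of NKT1-like cells with a UMI was 23.0%, 36.3% and 21.3%, and cells with at least 20 UMIs numbered 137, 329 and 32. With the NKT1 gate placed before the Treg and CD8 gates the ratio was -0.88. In CD8-like cells it was higher in BM + Spl, at 2156 against 1148 CPM (log2 ratio 0.91, 0.80 to 1.02). Treg-like cells stood at 697 against 392 CPM (0.83, 0.74 to 0.92), with a UMI in 54.8% against 40.9% of cells. In pDC-like cells the values were 179 and 39.9 CPM (2.16, 1.78 to 2.57), in 47 of 430 and 11 of 215 cells. Of these 430 and 215 pDC-like cells 221 and 96 also passed a later gate, and 71 and 29 had a V beta call. Some may be doublets, and their part in this Ccl5 level was not tested. NKT17-like cells went the way of NKT1-like cells, at 48.3 CPM in BM only and 8.93 in BM + Spl (-2.44, -3.92 to -1.26), but 1 cell held 75 of the 101 BM only UMIs. Sostdc1/Nrn1/Penk cells stood at 142.6 and 84.7 CPM (-0.75, -1.43 to -0.02), or within 1.5-fold (-0.13) without the richest cell of each library, and ungated cells were level (0.05, -0.12 to 0.22). NKT2-like cells stood at 4.88, 5.18 and 9.68 CPM, with 82 of the 147 BM + Spl UMIs in 1 cell. The class with the highest Ccl5 level was NKT1-like (1240 CPM), above CD8-like cells (1148 CPM), in BM only and CD8-like in BM + Spl. The NKT1-like class held 85.9% of the Ccl5 UMIs in BM only and 18.9% in BM + Spl, while the class was 48.4% of the cells of BM only and 19.99% of those of BM + Spl. In the 32 NKT1-like BM + Spl cells with at least 20 Ccl5 UMIs, 5 of 6 interferon genes were past 1.5-fold higher than in those without Ccl5. Of 1301 genes with at least 20 UMIs in the rich cells 17.3% were, and 3 of the 6 met that minimum. In the 329 such cells of BM only and the 137 of C57BL/6, 0 of 6 were higher, and in C57BL/6 2 were past it lower.

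Ccl3 and Ccl4, neighbours on chromosome 11, had a broad pattern. By CPM it was led by CD8-like cells in BM only and by B cell-like (Ccl4) and macrophage/DC-like cells (Ccl3) in BM + Spl. In each of these classes 1 cell held most of the UMIs. Ccl4 in CD8-like cells stood at 907 CPM in BM only and 391 CPM in BM + Spl, and Ccl3 at 342 and 102.3 CPM. In BM only 1 CD8-like cell carried 500 of the 625 Ccl4 UMIs of that class, 215 of its 236 Ccl3 UMIs and 129 Ccl5 UMIs, so most of these BM only levels lay in that cell. Without the richest cell of each library, a choice made after the values were seen, the log2 ratio in CD8-like cells was 0.95 in place of -1.74 for Ccl3 and 0.58 in place of -1.21 for Ccl4. In NKT1-like cells Ccl4 stood at 1.35 CPM in C57BL/6, 237 CPM (230 to 245) in BM only and 101.8 CPM (95.02 to 109) in BM + Spl, and the share with a UMI was 0.890%, 20.5% and 6.75%. Ccl3 in the same cells stood at 0.0796, 32.5 and 15.03 CPM. Both were highest in BM only (log2 ratios -1.22, -1.33 to -1.11, and -1.11, -1.41 to -0.82), but with gates set on thinned cells both ratios were within 1.5-fold (-0.48 and -0.23). Ccl3 was also just within it (-0.58) with the NKT1 gate placed before the Treg and CD8 gates, and without the 10 richest cells Ccl4 stood at -2.92 and Ccl3 at -3.18. Among pDC-like cells Ccl4 was found in 34.9% in BM only and 48.6% in BM + Spl (24.6% and 33.7% thinned), at 242 and 303 CPM, the widest detection of Ccl4 in any class. B cell-like cells stood at 41.4 and 437 CPM, with 249 of the 271 BM + Spl UMIs in 1 cell, and macrophage/DC-like cells had Ccl3 at 132 and 147 CPM. The latter lay in 8 of 30 and 6 of 25 cells, with 24 of the 41 BM + Spl UMIs in 1 cell. Leaving out the richest cell of each library put Ccl3 at 95.8 and 68.6 CPM in macrophage/DC-like cells and at 30.7 and 59.1 CPM in CD8-like cells. NKT2-like cells of all 3 libraries had 1 Ccl4 UMI in total and 3 of Ccl3. In NKT1-like cells of BM only, 58.3% of the cells with Ccl3 also had Ccl4, against 20.5% of all of them, and in BM + Spl 65.5% against 6.75%.

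NKT1-like cells with at least 5 UMIs of Ccl3 and Ccl4 together numbered 1 in C57BL/6, 247 in BM only and 30 in BM + Spl. The genes with the largest fold in them were not the same in the transplanted libraries. In BM only the genes with the largest fold over NKT1-like cells without either were H2-Aa, H2-Ab1, H2-Eb1, Cd8a, Gzma, Klra8, Cd74, Ccl5, Plek and Gm4208, from 10.1-fold to 2.82-fold. H2-Aa, H2-Ab1 and H2-Eb1, MHC class II genes, came from at most 2 of the 247 cells, whereas Gzma, a granzyme, had UMIs in 42.5% against 9.91% of cells and Ccl5 in 61.5% against 31.5%. In BM + Spl the leading genes were Il3, Spp1, Il2, Csf2, Prf1, Il21, Klra5, Cd70, Trav7-5 and Gzmc, where Spp1 was 113-fold and Gzmc 20.5-fold higher. These counts rested on few cells too, with 21 UMIs of Il3 in 1 cell against 1 UMI in the others, Il2 in 5 and Csf2 in 7 of the 30. Of the 30 cells 3 had no Cd3 UMI, with 169 of the 863 UMIs of Ccl3 and Ccl4, and 5 had at least 2 of Tyrobp, Fcer1g and Ncr1, and their part in these genes was not tested. The activation list had 12 of 12 genes past 1.5-fold higher in BM + Spl, beside 15.9% of 1633 genes, with a median of 5.01-fold. In BM only 2 of 12 were past it, Ifng at 1.82-fold and Nr4a3 at 1.75-fold, beside 2.44% of 6429 genes. The 1633 and 6429 genes, like the leading genes above, had at least 20 UMIs in the rich cells, a minimum that favours genes high there. Of the 12 list genes 11 met it in BM + Spl and 9 in BM only, so list and background were not counted alike. The difference between the libraries was not tested.

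**Figure D4:**
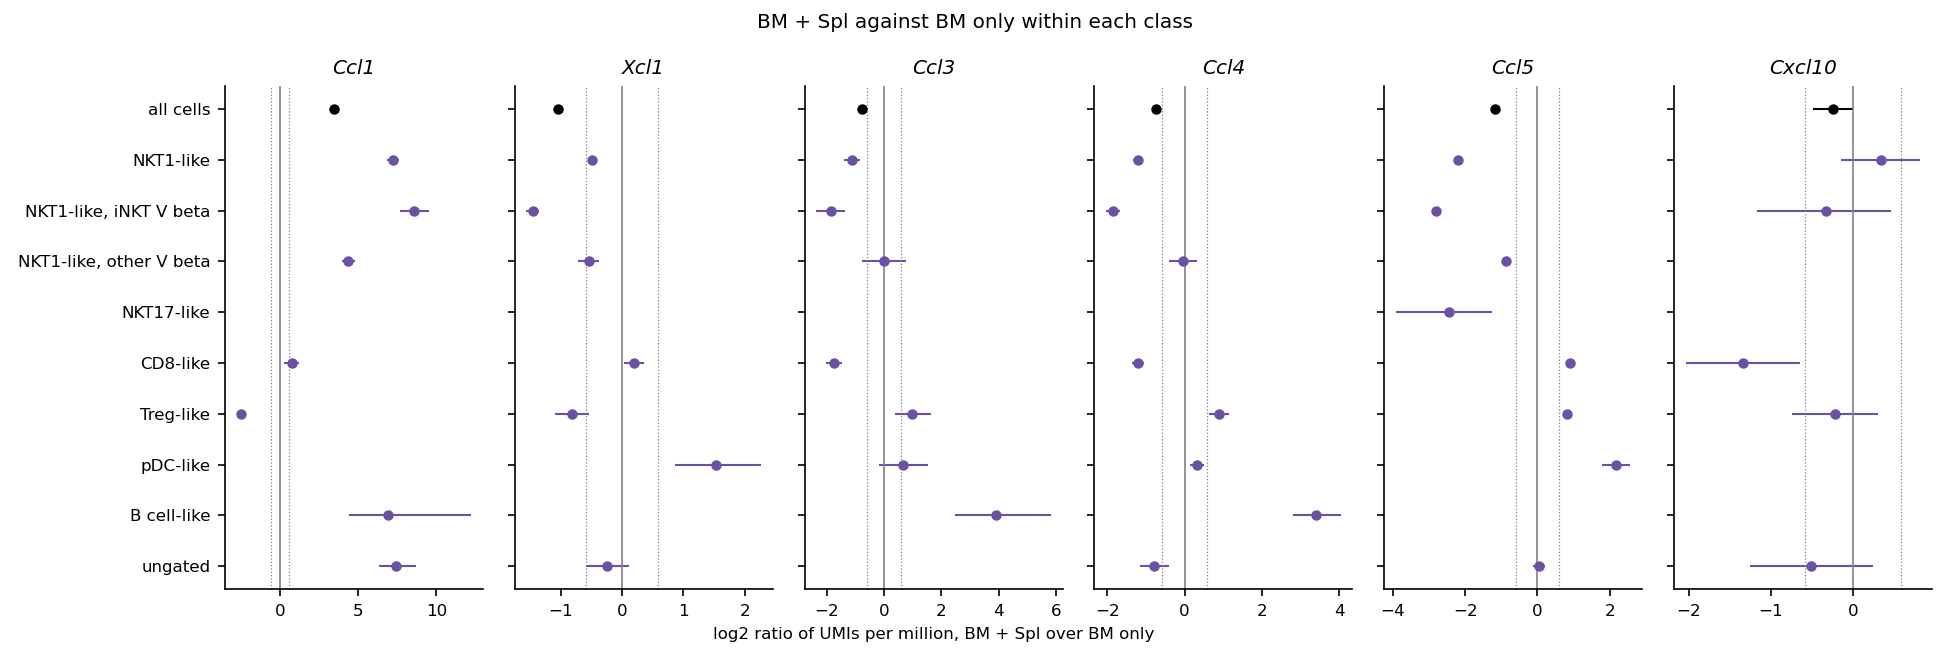
log2 ratio of CPM, BM + Spl over BM only, for each gene in all cells (black) and within classes (purple), where both libraries together had at least 50 UMIs and the interval has both ends; bars are exact conditional binomial 95% intervals for counting error, and dotted lines mark 1.5-fold. Ccl5 stood at -2.21 in NKT1-like cells, 0.83 in Treg-like and 0.91 in CD8-like cells.

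Within NKT1-like cells, BM + Spl over BM only was past 1.5-fold higher for Ccl1 and lower for Ccl3, Ccl4 and Ccl5, beside 12.1% of 10453 genes higher and 9.96% lower, while Xcl1 (log2 ratio -0.50) and Cxcl10 (0.34, -0.15 to 0.82) were within it. The NKT1-like class differed in make-up: among its cells with a V beta call, segments known from iNKT cells made up 92.2% in BM only and 54.6% in BM + Spl. Each gene was therefore also read by V beta. Such segments also made up 29.4% and 27.9% of the calls in Treg-like cells of BM only and BM + Spl, and 37.8% and 36.2% in CD8-like cells. A segment alone therefore does not identify an iNKT cell. With an iNKT segment (2233 and 510 cells) the log2 ratios were -1.45 for Xcl1, -1.85 for Ccl3, -1.86 for Ccl4, -2.81 for Ccl5 and 8.55 for Ccl1 (0.975 against 364 CPM). With another segment (188 and 424 cells) they were -0.55 for Xcl1 (515 against 353 CPM), -0.02 for Ccl3, -0.05 for Ccl4, -0.85 for Ccl5 (877 against 485 CPM) and 4.37 for Ccl1 (61.3 against 1270.1 CPM). Of the 53 Ccl1 UMIs of these BM only cells 50 lay in 1 cell. Without the richest cell of each library Ccl1 stood at 8.26 (6.71 to 10.5) with another segment and 10.4 (8.59 to 13.5) with an iNKT segment. BM only then held 3 and 2 Ccl1 UMIs, too few to give the size of these ratios. The ratios of Xcl1, Ccl3, Ccl4 and Ccl5 were thus lower with an iNKT segment than with another, where the intervals of Ccl3 (-0.76 to 0.78) and Ccl4 (-0.41 to 0.33) held 0, and the difference between the segments was not tested. Without the richest cell of each library the ratio with another segment was -0.61 for Xcl1, then past the line, and -0.56 for Ccl4 (-0.98 to -0.13). For Ccl3 it was -0.68 (-2.14 to 0.90), on 12 UMIs in BM + Spl and 7 in BM only, too few for a call.

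**Figure D5:**
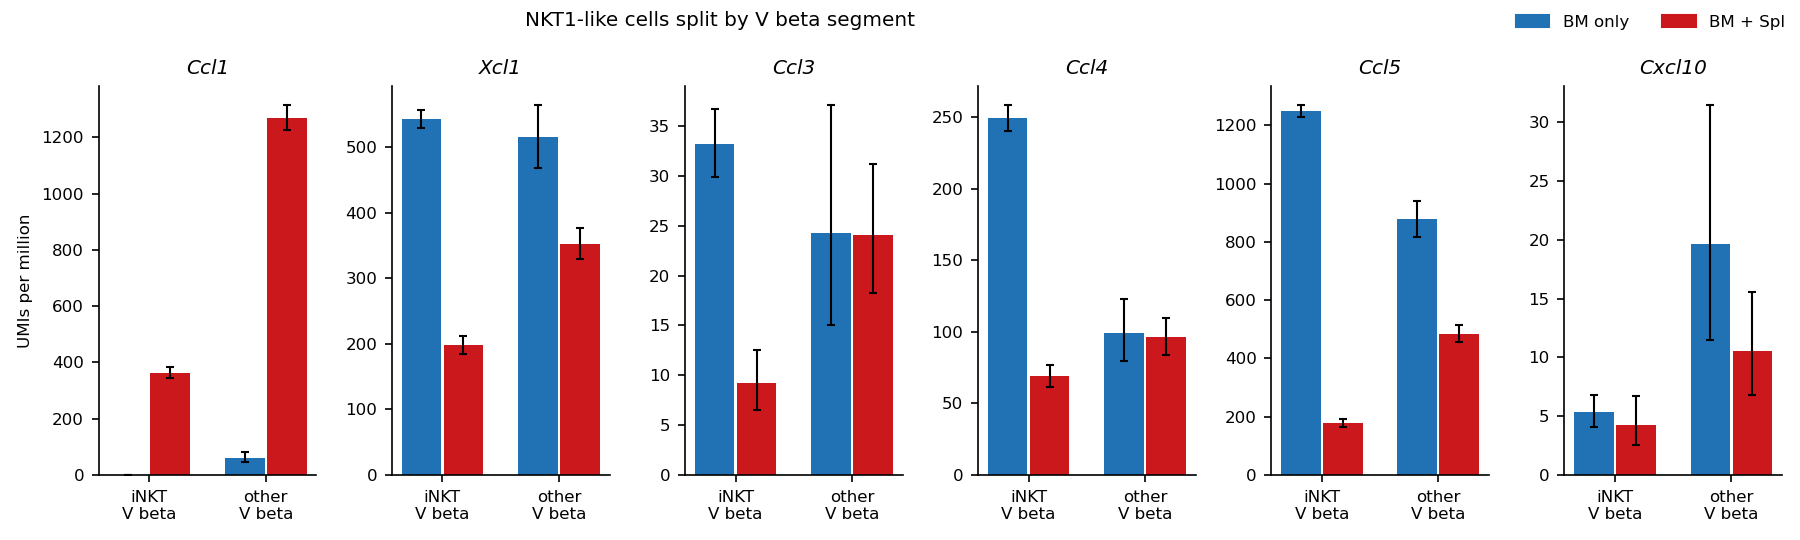
CPM of each gene in NKT1-like cells with a V beta segment known from iNKT cells or with another segment, for BM only and BM + Spl; each panel has its own axis from 0 and bars are exact Poisson 95% intervals for counting error. Ccl4 stood at 249 against 68.8 CPM with an iNKT segment and at 99.5 against 96.2 CPM with another.

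Cxcl10, an interferon-induced ligand of CXCR3, was spread over most classes. It had 385 UMIs in 75 cells of C57BL/6, 275 in 154 of BM only and 288 in 166 of BM + Spl. In C57BL/6 1 NKT17-like cell held 197 of the 385, and the next held 32. The highest class levels in BM only were macrophage/DC-like cells at 57.7 CPM, where all 17 UMIs lay in 1 of 30 cells, and CD8-like cells at 53.7 CPM. In BM + Spl they were Sostdc1/Nrn1/Penk cells at 28.5 CPM and CD8-like cells at 21.1 CPM. CD8-like cells thus had a lower Cxcl10 level in BM + Spl (log2 ratio -1.35, -2.04 to -0.65), on 37 UMIs in 13 of 146 cells and 38 in 18 of 328. Thinned to equal depth, the share of CD8-like cells with a UMI was level, at 4.67% in BM only and 4.81% in BM + Spl. Treg-like cells stood at 15.4 CPM in BM only and 13.2 CPM in BM + Spl, with intervals that overlap. Cells with at least 3 Cxcl10 UMIs, a limit chosen after the values were seen, numbered 14, 22 and 31. Against cells without Cxcl10, 6 of 6 genes of the interferon list were past 1.5-fold higher in C57BL/6 (beside 19.1% of 918 genes, median 21.98-fold), 6 of 6 in BM only (11% of 1177, median 6.95-fold) and 5 of 6 in BM + Spl (11.3% of 2463, median 3.01-fold). These shares are of genes with at least 20 UMIs in the rich cells, a minimum that favours genes high there. All 6 list genes met it in C57BL/6, 5 in BM only and 4 in BM + Spl. Rsad2, an antiviral enzyme, stood at 603 against 13.3 CPM in C57BL/6, 55.9 against 6.73 in BM only and 37.4 against 7.90 in BM + Spl. The gene of the list that was within the line in BM + Spl was Irf7 (1.32-fold). Of the 12 activation genes 8 were past 1.5-fold higher and 3 lower in C57BL/6. The counts were 2 and 5 in BM only and 3 and 7 in BM + Spl, beside the same shares. Only 2, 3 and 4 of the 12 had the 20 UMIs in the 3 libraries.

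The receptors gave the other side of these pathways. Ccr8 had 111 UMIs in C57BL/6, 2513 in BM only and 3740 in BM + Spl, where Treg-like cells held 1315. Cxcr3 (3737, 3414 and 2651 UMIs) is 1 of the markers of the NKT1 gate, and NKT1-like cells held 3398, 2711 and 1170 of its UMIs. Xcr1 (16, 38 and 24 UMIs), Ccr1 (9, 74 and 77) and Ccr3 (4, 30 and 30) were sparse. In BM + Spl over BM only, Cxcr3 stood at -0.67 and Xcr1 at -0.97 (log2), and the other 3 were within 1.5-fold, beside 6.83% of genes past it higher and 8.28% lower.

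Another 34 chemokine ligand genes were listed by the libraries. Of these, 9 had no UMI, and 10 had at least 50. Ccl25 (1082, 276 and 348 UMIs in C57BL/6, BM only and BM + Spl), the thymic ligand of CCR9, and Ccl27a (97, 113 and 203) were seen as scattered UMIs in many cells. Cxcl2 (0, 313 and 234) had its most UMIs in Treg-like cells and Ccl17 (167, 15 and 22) was found mainly in C57BL/6. Ccl20, a ligand of CCR6, had 0, 11 and 94 UMIs, and Cx3cl1 had 0, 18 and 48. Ccl2 had 0, 57 and 5 UMIs and Ccl6 4, 26 and 40, both mostly in macrophage/DC-like cells. Ccl22 (2, 23 and 29) lay mostly in B cell-like cells of the transplanted libraries, and Cxcl16 had 6, 29 and 19 UMIs. Of the 8 with at least 50 UMIs over both transplanted libraries, Ccl20 (log2 ratio 2.79) and Cx3cl1 (1.11) were past 1.5-fold higher in BM + Spl. Ccl2 (-3.82) and Cxcl2 (-0.73) were past it lower, beside 6.83% of all genes higher and 8.28% lower. Cells with a UMI in BM only and BM + Spl numbered 4 and 25 for Ccl20 and 12 and 38 for Cx3cl1. They numbered 6 and 2 for Ccl2 and 61 and 56 for Cxcl2. In the transplanted libraries no gene of this wider list had more than the 348 UMIs of Ccl25.

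The activation and interferon lists were also read over all cells. In BM + Spl over BM only, 4 of 12 activation genes were past 1.5-fold higher (Il2 at 2.43, Irf8 at 0.79, Tnfrsf9 at 0.69 and Csf2 at 0.67, log2) and 3 lower (Ifng at -1.52, Cd69 at -0.82 and Egr1 at -0.63), beside 6.83% and 8.28% of all genes. In NKT1-like cells 7 were higher, among them Irf8 at 0.80 and Tnfrsf9 at 1.88, and 2 lower, beside 12.1% and 9.96%. Over all cells, pDC-like cells held 3121 of the 4216 Irf8 UMIs of BM only and 7297 of the 9028 of BM + Spl. That class had 215 and 430 cells. Treg-like cells held 2491 of the 4010 Tnfrsf9 UMIs of BM only and 4372 of the 8021 of BM + Spl. The part of class make-up in these ratios was not tested. Of the 6 interferon genes 1, Usp18 at 0.61, was past it higher over all cells and 0 lower, beside 6.83% and 8.28%. Within NKT1-like cells 2 were higher, Rsad2 at 0.86 and Usp18 at 0.69, and 1 lower, Ifit3 at -0.65, beside 12.1% and 9.96%.

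Over 21 profiles (class by library, at least 50 cells each) and 9913 genes with at least 500 UMIs, the genes with the most similar log2(CPM + 1) pattern were Eea1 (Pearson's r 0.90), Dgki and Lilr4b for Ccl1, Nkg7 (0.93), Klrc1 and Ifng for Xcl1, Ccl4 (0.89), Nod1 and Bloc1s5 for Ccl3, Il10rb (0.90), Ccl3 and Smim3 for Ccl4, Nkg7 (0.91), Xcl1 and Neurl3 for Ccl5, and Ubxn2a (0.87), Tmem65 and Cfap36 for Cxcl10. The profiles share libraries and depth, and Nkg7 is 1 of the 6 NKT1 markers, so r is a description. Xcl1 and Ccl5 were like each other (0.89), as were Ccl3 and Ccl4, while Ccl1 reached 0.61 at most with any of the others (Ccl3).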

How the data were processed

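Raw UMI counts per gene and cell were deposited by the authors for each of the 3 libraries, with barcodes and mm10 gene lists. The file headers give Cell Ranger 3.0.2 for C57BL/6 and 7.0.0 for both transplanted libraries, and the submitters' processing notes name Seurat 4.0.2. The labels name 3' and 5' kits without saying which library used which, and the number of transcripts seen per cell and of V beta calls may depend on it. Gates, CPM, intervals and ratios were computed over the 30406 shared genes with scipy 1.17.1, pandas 2.3.3 and numpy 2.4.6 (Python 3.11.15). V beta was called when at least 80% of a cell's V beta UMIs lay on 1 segment (Trbv12-2 and Trbv13-2 summed). Thinning drew 2500 UMIs per cell without replacement and left out 13, 835 and 472 shallower cells. The calculations were tested on simulated data. A ratio is past the line at 1.5-fold with at least 50 UMIs over both libraries. Genes named were the 6 ligands, the receptors, both lists, other ligands with at least 50 UMIs, the 10 leading genes of cells rich in Ccl3 and Ccl4 and the 3 most similar per ligand, and other genes were chosen after their values were seen. The 6 genes and the lists were chosen with earlier results of these data known. With 1 library per condition no test across samples was possible. A receptor and an interferon-response gene that had been on the lists are not reported here.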

Additional observations from a re-analysis of the deposited data

Results flagged for a closer look

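Ratios of BM + Spl over BM only pointed in opposite directions in different classes for 5 of the 6 ligands, past 1.5-fold in each with counting intervals apart from 0 on the log2 scale, and none of these differences was tested. How many of all genes do so was not counted, so the 5 of 6 only describes these ligands. Ccl1 stood at 7.21 in NKT1-like and -2.51 in Treg-like cells, Xcl1 at 1.53 in pDC-like and -0.82 in Treg-like cells, Ccl3 at 3.90 in B cell-like and -1.74 in CD8-like cells, Ccl4 at 3.40 in B cell-like and -1.22 in NKT1-like cells, and Ccl5 at 2.16 in pDC-like and -2.44 in NKT17-like cells. Single cells carried much of several of these values. In BM + Spl 1 cell held 82 of the 148 pDC-like Xcl1 UMIs, 42 of the 59 B cell-like Ccl3 UMIs and 249 of the 271 B cell-like Ccl4 UMIs, and in BM only 1 cell held 407 of the 578 Treg-like Ccl1 UMIs, 215 of the 236 CD8-like Ccl3 UMIs and 75 of the 101 NKT17-like Ccl5 UMIs. The share of pDC-like cells with Xcl1 was 3.26% in BM only and 2.56% in BM + Spl. Without the richest cell of each library Ccl3 in CD8-like cells stood at 0.95 and so no longer opposed B cell-like cells. The values were then -1.89 for Ccl1 in Treg-like cells, 0.94 and -0.65 for Xcl1 in pDC-like and Treg-like cells, 1.48 for Ccl4 in B cell-like cells and 2.83 for Ccl5 in pDC-like cells. For Ccl5 in NKT17-like cells the value was -2.06, on 2 UMIs in BM + Spl and 26 in BM only.

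Cells left out by the filter also carried UMIs of these genes, above the limit that a count of 0 allows. The 179 C57BL/6 cells left out held 84 Ccl1 UMIs, all in 1 cell, against 29 in all kept cells, with 13 Xcl1 and 33 Ccl5 UMIs. The 16 left out of BM only held 4 Xcl1 and 5 Ccl3 UMIs, and the 16 left out of BM + Spl held 29 Ccl5 UMIs.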

How the results depend on the processing

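The 5 ligands past 1.5-fold over all cells kept their direction and stayed past it under all 8 alternatives that give a ratio. Leaving out only the richest cell of each library was not among these 8. It put Ccl3 over all cells within the line (-0.53, -0.70 to -0.36). Ccl1 ranged from 3.20 (thinned) to 6.63 (without the 10 richest cells of each library) on the log2 scale. In NKT1-like cells the count of ligands past 1.5-fold went from 4 to 2 when the gates were set on thinned cells, where Ccl3 stood at -0.23 and Ccl4 at -0.48. Xcl1 there ranged from -1.45 to 0.09 and was past the line under 5 of 12 alternatives, Ccl5 stayed past it from -2.81 to -0.88, and Ccl1 from 4.87 (NKT1 gate before the Treg and CD8 gates) to 8.55 (iNKT V beta). The ratio of Ccl1 without its 10 richest cells could not be formed in NKT1-like cells, since BM only then held 0 UMIs. Without the 10 richest cells, at least 50% of UMIs lay in 1% of cells for 2 in place of 4 ligands in C57BL/6, for 0 in place of 1 among those with 200 UMIs there (also 0 when thinned), and for 1 in place of 3 in BM only among those with 200 UMIs. Over all genes, 688 were past 1.5-fold lower in place of 1060 when cells were thinned. With no minimum of UMIs, 3258 were higher and 4067 lower over all cells, and 4064 and 3919 in NKT1-like cells. Leaving out shared barcodes, non-T gates or cells without Cd3 UMIs, and the richest cell of each library within a class, was chosen after seeing the data. Without that richest cell the log2 ratio turned from -1.74 to 0.95 for Ccl3 and from -1.21 to 0.58 for Ccl4 in CD8-like cells, and from -1.49 to 0.39 for Cxcl10 in NKT2-like cells, where it held 23 of the 30 BM only UMIs. The cause of the other changes was not tested. No paired analysis was possible because each group has 1 library. Cxcl10 rests on the fewest UMIs in both transplanted libraries (275 and 288), and with 1 library per condition the spread between mice is unknown.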
